A study of Gallus gallus with 14 samples.

Results

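The long non-coding RNAs (lncRNAs) described here are those of the sex chromosomes of the hen. They were all rows of the expression table whose locus lies on chromosome Z or W, without the assembled locus MSTRG.29422, and they came to 466 of the 9977 lncRNAs in the table. All 466 lay on Z, and 0 rows lay on W, so no W lncRNA could be described. The members comprised 355 known lncRNAs, which carry a NONCODE identifier, and 111 assembled lncRNAs, which carry none and were put together by the authors from these libraries. The 3 MSTRG.29422 transcripts also lie on Z and were left out by the rule. The table holds another 8792 lncRNAs on chromosomes 1 to 28 and 716 on linkage groups and unplaced sequences.

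The tissue was the uterovaginal junction (UVJ), the band at the upper end of the vagina that carries the sperm storage tubules, taken from 14 egg-laying hens with 1 library each. The study asked how lncRNA levels in this tissue relate to duration of fertility (DF), the time after insemination during which a hen lays fertile eggs. The 7 long-DF hens and the 7 short-DF hens were selected by their fertility records from a larger population of caged egg-type hens that were housed alike and artificially inseminated, and the labels give neither strain nor age at sampling. Each hen number carries the prefix JH or JF, whose meaning no source used here gives. The prefixes were balanced, with 4 JH and 3 JF hens in both groups. The table lists lncRNAs only, so the labelled tissue could not be checked against marker genes.

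In birds the female is the heterogametic sex: a hen carries a single Z and a single W, while a rooster carries a pair of Z chromosomes. Dosage compensation of Z genes is known to be incomplete in birds and to act gene by gene, and the chicken Z also holds non-coding RNA loci with female-biased expression. A lncRNA can be transcribed from between genes, from within an intron, or from the strand opposite to a coding exon.

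Between 213304 and 281892 fragments per hen were counted on lncRNAs, and 3826 to 5668 of these, or 1.69% to 2.26%, fell on the Z members. The members made up 466 of 9977 rows, so the Z lncRNAs held a smaller share of the fragments than of the rows in all 14 hens. Between 278 and 312 members per hen had at least 1 fragment, and 76 to 111 of these had exactly 1. FPKM, fragments scaled both to transcript length in kilobases and to the total of the library, was computed by the authors, and the library totals behind it were 5900805 to 8662126. The share of fragments leans on the most abundant lncRNAs. The highest mean FPKM was 27.6 on Z and 2027 on chromosomes 1 to 28. A count of 0 allows up to 3 fragments. Limits and intervals of this kind cover counting error only.

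The members spanned Z from base 5167 to base 81984506 of Galgal4, at 5.68 lncRNAs per megabase. This was the lowest density among the 29 chromosomes, next to 6.5 on chromosome 2 and 7.13 on chromosome 1. Along Z, the stretch from 20 to 30 Mb held the most members, 87, and the stretch from 70 to 80 Mb the fewest of the full 10 Mb stretches, 32. Another 22 lay in the short stretch beyond 80 Mb. Counted as transcripts, assembled lncRNAs were not spread evenly. They made up 44.1% of the 59 members between 40 and 50 Mb and 37.5% of the 64 members between 50 and 60 Mb, but 0 of the 22 members beyond 80 Mb. Overlapping transcripts of a locus each count in these shares. A single locus held 13 of the 24 assembled members between 50 and 60 Mb. Loci of 6 and 3 transcripts were among the 26 between 40 and 50 Mb. Of all Z members, 23.8% were assembled, against 19.9% of the autosomal lncRNAs. The 466 members fell into 348 loci of overlapping transcripts, of which 284 held a single lncRNA and 1 held 13.

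Among the 111 assembled members, 68 were intergenic, 36 were antisense to an exon and 7 were intronic, or 61.3%, 32.4% and 6.31%. The autosomal assembled lncRNAs were split 63.5%, 27.4% and 9.08%. Exon numbers were close, with 2 exons in 57.7% of the Z transcripts and 56.1% of the autosomal ones. The 36 antisense transcripts lay opposite 13 genes or annotated transcripts. NANS, which encodes the enzyme that joins mannosamine phosphate and phosphoenolpyruvate in sialic acid synthesis, had 13 of them, and MRPS27, a protein of the mitochondrial ribosome, had 6. NPR2, a natriuretic peptide receptor, and EPB41L4A, a member of the band 4.1 family, had 3 each. AGGF1, an angiogenic factor, and RASGRF2, a guanine nucleotide exchange factor, had 2 each, and 1 transcript each lay opposite GNE, which acts before NANS in sialic acid synthesis, the ephrin EFNA5, the integrin subunit ITGA2, the ribosomal protein RPS6 and AGTPBP1, which trims glutamate from tubulin. The remaining 2 lay opposite the known lncRNAs NONGGAT011786.2 and NONGGAT016752.1. The 7 intronic transcripts lay within MCTP1, SPINZ, SK2, ATG10 and the known lncRNA NONGGAT016769.1, as the annotation names them. MSTRG.30369.15 in MCTP1 (Z:57388866-57393433) and MSTRG.30117.5 in SPINZ (Z:43032082-43047074) were the most abundant of these, at 5.48 ± 2.75 and 5.17 ± 0.77 FPKM (SD, n = 14), and MSTRG.29664.1, antisense to AGGF1 (Z:23168819-23169947), had 4.09 ± 1.55. These 3 were picked after their values were seen.

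Known Z lncRNAs were lower than known autosomal lncRNAs in every hen. The median FPKM of the 355 known Z lncRNAs was 0.234 ± 0.030 (SD, n = 14), ranging from 0.174 in JH104 to 0.294 in JH49, and that of the 7041 known autosomal lncRNAs was 0.338 ± 0.033 (SD, n = 14). The ratio within a hen was 0.692 ± 0.063 (SD, n = 14) and lay between 0.588 and 0.822, below 1 in 14 of 14 hens. A median of known Z lncRNAs stands for a single fragment per hen, so the upper part of the distribution is the firmer measure. The ratio was 0.581 ± 0.031 at the upper quartile and 0.508 ± 0.064 at the 90th percentile, again below 1 in 14 of 14 hens. Known Z lncRNAs were also detected less often, with at least 1 fragment in 60.9% ± 3.1 of them per hen against 67.7% ± 1.8 on the autosomes (SD, n = 14). A mean above 1 FPKM was reached by 64 of 355, or 18.03%, against 28.3% of the known autosomal lncRNAs. These are descriptions without a test, since the 14 hens share the same transcripts, and in bulk tissue fewer cells of a type and less RNA per cell cannot be told apart.

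Assembled lncRNAs did not show this gap at the median. They were put together from these same libraries and kept only past an FPKM threshold of the authors. Their levels therefore depend in part on how they were chosen, and the part of this in their ratio was not tested. The 111 assembled Z lncRNAs had a median FPKM of 0.892 ± 0.185 and the 1751 assembled autosomal ones 0.916 ± 0.108 (SD, n = 14). The ratio within a hen was 0.971 ± 0.155, from 0.695 in JF21 to 1.18 in JH109, and was below 1 in 8 of 14 hens. It was 0.948 ± 0.104 at the upper quartile and 0.790 ± 0.099 at the 90th percentile, where 13 of 14 hens were below 1. The ratio of mean FPKM, which leans on the most abundant lncRNAs, was 0.426 ± 0.034 for assembled and 0.512 ± 0.030 for known lncRNAs. For each kind it was below 1 in all 14 hens. By prefix, the median FPKM of the assembled Z lncRNAs was 1.01 ± 0.13 in the 8 JH hens (0.795 to 1.16) and 0.739 ± 0.123 in the 6 JF hens (0.609 to 0.891), with overlap. The autosomal medians were 0.956 ± 0.121 in JH and 0.863 ± 0.060 in JF. By DF group, the assembled Z medians were 0.845 ± 0.196 in the long-DF and 0.939 ± 0.175 in the short-DF hens. The known Z medians were 0.240 ± 0.039 in JH and 0.226 ± 0.010 in JF. By DF group they were 0.226 ± 0.028 in the long-DF and 0.242 ± 0.032 in the short-DF hens. The groups overlapped in each of these Z medians. A mean above 10 FPKM was reached by 13 of 466 Z members, or 2.79%, and by 4.58% of autosomal lncRNAs.

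**Figure D1:**
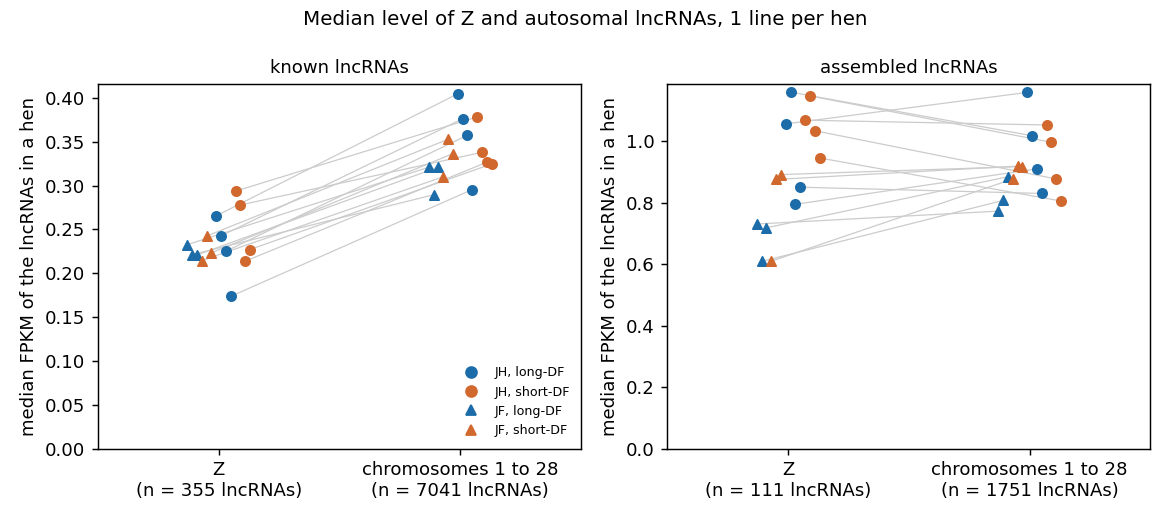
Median FPKM of known (left) and assembled (right) lncRNAs on Z and on chromosomes 1 to 28, each line joining the 2 medians of 1 hen; the marker shape gives the prefix and the colour the DF group. For known lncRNAs every line rises from Z (0.174 to 0.294) to the autosomes (0.289 to 0.405), while for assembled lncRNAs the lines go both ways.

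Chromosome by chromosome, the known lncRNAs of Z had the lowest median of 29 chromosomes, but the next chromosomes in that order did not differ from it beyond the spread between hens. Chromosome 2 had a median of 0.242 ± 0.027, chromosome 3 of 0.243 ± 0.037 and chromosome 1 of 0.251 ± 0.032 (SD, n = 14), and Z was below them in 9, 9 and 10 of 14 hens. Chromosome 20, at 0.254 ± 0.039, was above Z in 11 of 14 hens. Chromosomes 4 to 15, 17 to 19 and 21 to 28 were above Z in all 14 hens, and chromosome 16, with 6 known lncRNAs, in 13. At the upper quartile Z was again lowest, at 0.690 FPKM. Chromosome 2, at 0.733 FPKM, was above it in 13 of 14 hens and chromosome 1, at 0.886 FPKM, in 14. Chromosome 16, at 0.973 ± 0.483 FPKM, was above it in 9 of 14. The assembled lncRNAs of Z ranked ninth from the lowest of 29.

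**Figure D2:**
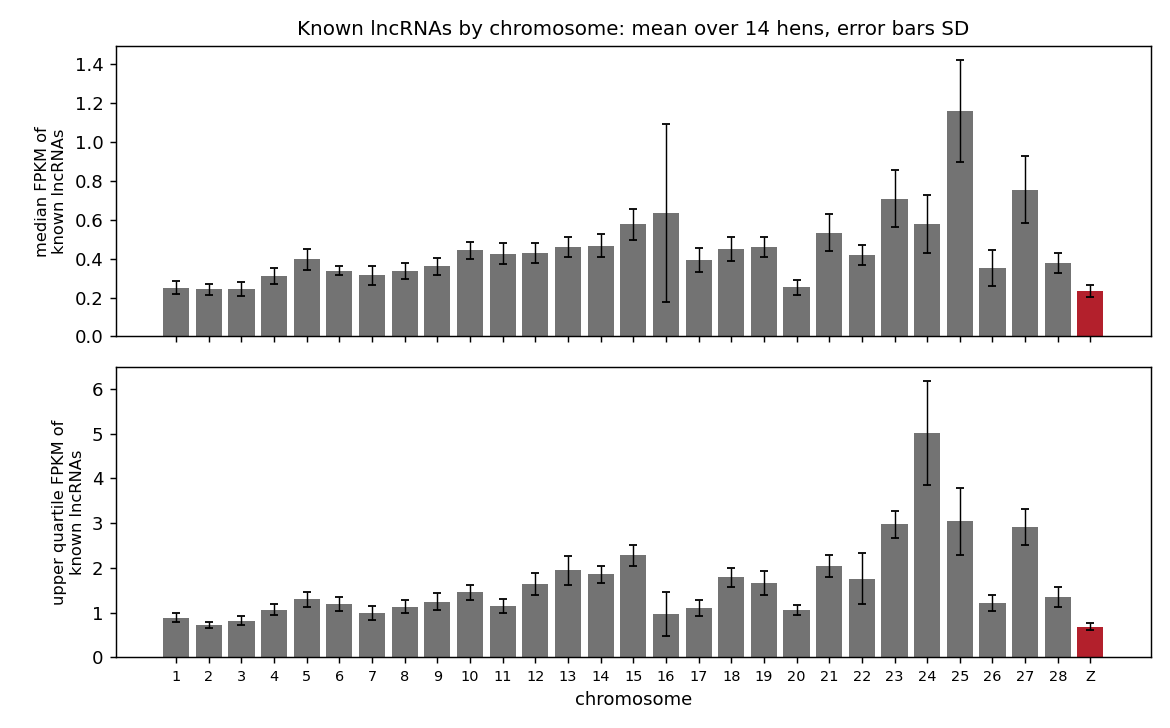
Median (top) and upper quartile (bottom) of the FPKM of known lncRNAs on each chromosome, as the mean over 14 hens with the SD as error bar; Z is in red. Z has the lowest bar in both panels (0.234 and 0.690 FPKM), close to chromosomes 1, 2 and 3 at the median.

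Known Z lncRNAs were also lower within each source. The 126 Z lncRNAs of NONCODEv4 had a median FPKM of 0.240 ± 0.046 against 0.412 ± 0.033 on the autosomes (SD, n = 14), with nearly equal median lengths of 692.5 and 694 nt. Of the other 2 sources, which are published transcript sets, the larger had 141 Z lncRNAs at 0.319 ± 0.050 FPKM against 0.419 ± 0.037. The smaller set had 88 Z lncRNAs at 0.0328 ± 0.0585 FPKM against 0.153 ± 0.063, and 47.6% of them had a fragment in an average hen, against 57.0% of its autosomal lncRNAs. That Z median is near 0, and at the upper quartile the smaller set had 0.394 ± 0.071 against 0.526 ± 0.062 FPKM. The upper quartiles were 0.920 against 1.54 FPKM in NONCODEv4 and 0.817 against 1.53 FPKM in the larger set. Along Z, the median FPKM of known and assembled members together was highest between 40 and 50 Mb, at 0.401 ± 0.171, and lowest between 70 and 80 Mb, at 0.186 ± 0.054 (SD, n = 14). Between 20 and 30 Mb it was nearly as high, at 0.394 ± 0.105. Assembled lncRNAs, which had the higher median, were 44.1% of the members between 40 and 50 Mb and 9.38% between 70 and 80 Mb. Beyond 80 Mb, where 0 of 22 members were assembled, the median was 0.379 ± 0.085. Between 50 and 60 Mb, where 37.5% were assembled, it was 0.305 ± 0.083. Medians of known members alone were not computed by stretch, so the part of this mix was not tested.

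The 13 members above a mean of 10 FPKM comprised 10 known and 3 assembled lncRNAs. NONGGAT011676.2 (Z:10698326-10698931, 504 nt) had the highest mean, 27.6 ± 9.89 FPKM (SD, n = 14), with a range of 16.7 to 48.7 and a median of 27.3 in the long-DF hens and a range of 15.6 to 38.3 and a median of 25.9 in the short-DF hens. Its neighbour NONGGAT011677.2 (Z:10699577-10700241, 559 nt) starts 645 bases further on and reached 20.3 ± 6.15 FPKM. Both were highest in JH25, at 48.7 and 33.1 FPKM, and both were low in JH130 and JF21.

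NONGGAT011852.2 (Z:37220525-37221237, 306 nt) had 23.6 ± 7.28 FPKM and NONGGAT011956.2 (Z:54809678-54810680, 897 nt) had 23.6 ± 3.23 FPKM, so the second varied less between hens at the same mean. NONGGAT011956.2 ranged from 15.4 to 25.8 FPKM in the long-DF hens and from 23.1 to 28.6 in the short-DF hens, and the groups overlapped. NONGGAT011617.2 (Z:1755389-1756845, 297 nt) followed with 18.4 ± 5.21 FPKM and NONGGAT012030.2 (Z:65776739-65783589, 1304 nt) with 16.3 ± 3.07 FPKM. No gene name or role is given for these known lncRNAs.

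Of the 6 most abundant assembled members, 3 belonged to the NANS antisense locus on the plus strand (Z:51836647-51856526). MSTRG.30266.11 averaged 22.03 ± 12.3 FPKM, MSTRG.30266.2 14.3 ± 7.52 and MSTRG.30266.1 9.76 ± 8.28 (SD, n = 14). MSTRG.30266.11 was at 0 in 3 hens and the other pair in JF40. MSTRG.29375.1 (Z:8953949-8954311, plus strand, 203 nt), antisense to NPR2, had 16.8 ± 4.24 FPKM and was detected in all 14 hens. The intergenic MSTRG.30304.1 (Z:53477658-53479522, plus strand, 1754 nt) had 7.24 ± 1.48 FPKM and the intergenic MSTRG.30016.1 (Z:36665525-36671126, minus strand, 1966 nt) 6.94 ± 1.10 FPKM, with fragments in every hen.

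**Figure D3:**
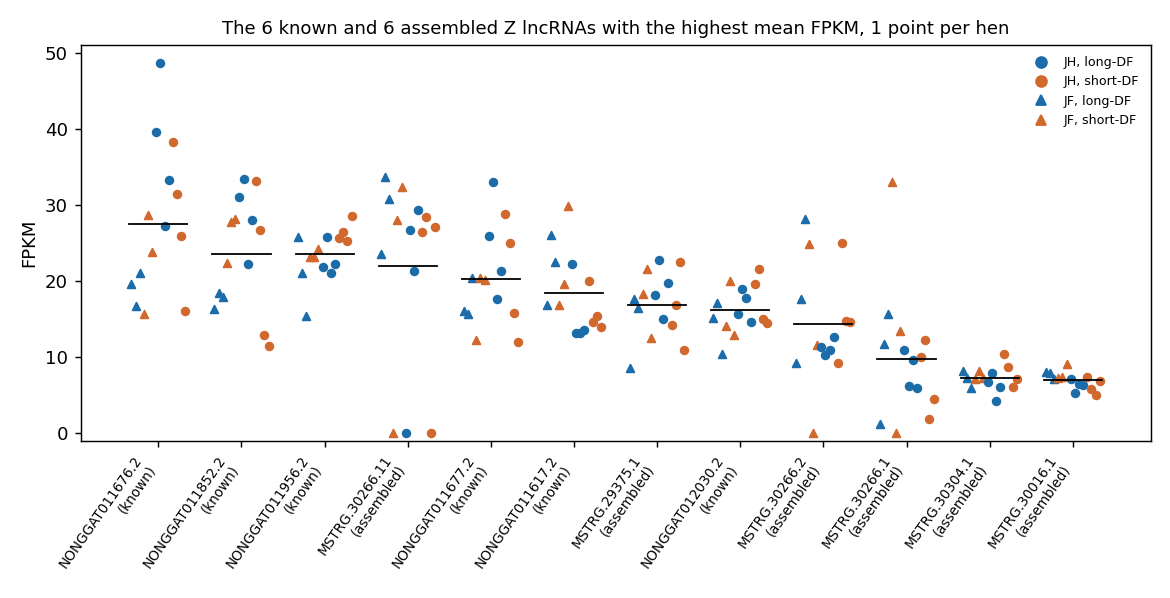
FPKM per hen of the 6 known and 6 assembled Z lncRNAs with the highest mean, ordered by mean; the horizontal line is the mean over 14 hens, the marker shape gives the prefix and the colour the DF group. The DF groups overlap in all 12, and MSTRG.30266.11 stands at 0 in 3 hens and between 21.4 and 33.7 FPKM in the other 11.

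No Z lncRNA was called between long-DF and short-DF hens. Of the members, 292 reached 0.1 FPKM in at least 7 hens and entered the test, 209 known and 83 assembled. A lncRNA was called where its adjusted p did not exceed 0.05, its p did not exceed 0.01 and its log2 fold change reached 2 in either direction. By edgeR, 0 of 292 were called, beside 0 of the 6887 lncRNAs tested over the genome (0%). The study, with edgeR at these thresholds, listed differentially expressed lncRNAs between the same groups. That list was not reproduced by the fit used here, and the reason was not tested. At an unadjusted p under 0.05 edgeR found 7 of 292, or 2.40%, against 2.12% of all tested lncRNAs. DESeq2 and limma also called 0 members. The median log2 fold change of the tested members was -0.02, with 140 above and 152 below 0, and in 0 of 292 did the FPKM ranges of the groups stand apart, as in 0.0436% of all tested lncRNAs.

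The lncRNAs with the smallest p were counted at a few fragments per hen. NONGGAT016707.1 (Z:21771622-21772764) had 0 fragments in 6 long-DF hens and 1 in JF64, and 0 to 2 fragments in the short-DF hens with a median of 1. Its 2 groups overlapped, and its log2 fold change was -2.45 ± 0.67 (SE, adjusted p = 0.995 by edgeR, exact permutation p = 0.00466, two-sided). Summed over its locus of 2 transcripts, the log2 fold change was -0.50 ± 0.48 (adjusted p = 0.995 by edgeR on summed counts, exact permutation p = 0.267). MSTRG.29358.1 (Z:8492437-8495440) ranged from 0 to 0.538 FPKM in the long-DF hens and from 0 to 2.66 in the short-DF hens (log2 fold change -2.10 ± 0.86, adjusted p = 0.995 by edgeR).

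In the other direction, NONGGAT011810.2 (Z:31790263-31792166) had 1 or 2 fragments in 6 long-DF hens and 0 in JF61, and among the short-DF hens only JF40 had a fragment (log2 fold change 2.02 ± 0.69, adjusted p = 0.995 by edgeR, exact permutation p = 0.00874). Its locus of 4 transcripts held 25 to 68 fragments in the long-DF and 31 to 65 in the short-DF hens. Summed over that locus, the log2 fold change was -0.07 ± 0.24 (adjusted p = 0.995 by edgeR on summed counts, exact permutation p = 0.624). NONGGAT011742.2 (Z:22265728-22269852) had 1 to 5 fragments in each long-DF hen and 0 to 3 in each short-DF hen, and NONGGAT016622.1 (Z:46479875-46483252) 0 to 2 and 0 to 1. Their log2 fold changes were 1.20 ± 0.55 and 1.57 ± 0.65, each with an adjusted p of 0.995 by edgeR. The groups overlapped in every one of these.

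Within the prefixes the result was the same. Among the 8 JH hens edgeR called 0 of 292 members, beside 0.0145% of all tested lncRNAs, and 4 members had an unadjusted p under 0.05, or 1.37%, against 3.93% of all. Among the 6 JF hens it called 0 of 289, beside 0.0583% of all tested, and 13 had an unadjusted p under 0.05, or 4.50%, against 3.63%. The difference of the DF effect between the prefixes was called for 0 of 292 members, as for 0% of all tested lncRNAs, and 12 had an unadjusted p under 0.05, or 4.11%, against 4.47%. For single lncRNAs the exact permutation test cannot go below p = 0.1 within JF and 0.0286 within JH.

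The study's list of differentially expressed lncRNAs holds 6 of the 466 members. That count was not set against the list's share of all lncRNAs, so it is not read as an excess or a lack on Z. The list was chosen on these same hens, so it is not independent evidence of a direction. MSTRG.30180.2 (Z:46140080-46144880, minus strand, 4 exons), is antisense to EPB41L4A. It was at 0 FPKM in the 3 JF long-DF hens and at 2.50, 2.03 and 1.23 FPKM in the 3 JF short-DF hens. In the JH hens it was at 1.76, 1.53, 0.316 and 0.939 FPKM in the long-DF hens and at 1.85, 1.73, 1.72 and 1.04 FPKM in the short-DF hens, which overlap. Over all hens its log2 fold change was -1.45 ± 0.58 (SE, adjusted p = 0.995 by edgeR), and the difference between the prefixes had an adjusted p of 0.482 by edgeR. Within JF the adjusted p was 0.989 by edgeR and 0.0313 by limma on log2(FPKM + 0.1), and the exact permutation p was 0.1, the smallest that 3 against 3 hens allow.

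Of the other 5, a pair was counted almost wholly in a single hen. MSTRG.30266.4 had 42 fragments in the short-DF hen JF40 and 2 in JF61, and 0 in the other 12 hens. MSTRG.30266.5 had 34 fragments, all in JF40. For these and for NONGGAT011759.2, which missed the FPKM filter, the adjusted p was 0.993 by edgeR without the filter. MSTRG.29522.1 and NONGGAT011758.2 had log2 fold changes of 0.61 ± 1.17 and -0.13 ± 0.77 between long-DF and short-DF hens, each with an adjusted p of 0.995 by edgeR. The first changed sign when JH25 was left out, to -0.01, and the second when JF25, JF61, JF64 or JF56 was left out, to between 0.06 and 0.10.

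JH and JF hens differed in 11 Z lncRNAs. With the DF group as a covariate, edgeR called 11 of 292 members, or 3.77%, beside 2.76% of all tested lncRNAs. Of these, 9 were higher in JH hens, beside 1.6% of all tested, and 2 were lower, beside 1.16%. The FPKM filter could be met by the 8 JH hens alone but not by the 6 JF hens alone, so it kept out lncRNAs seen only in JF. Without the filter 14 of 461 members were called, 10 higher and 4 lower in JH, beside 2.05%, 1.03% and 1.01% of all lncRNAs. On the adjusted p alone 18 of 292 passed, or 6.16%, against 6.93% of all. The 11 came from 9 loci, and 4 were known and 7 assembled. What the prefix stands for is not given, so whatever differs between JH and JF hens cannot be told apart.

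Some of the called lncRNAs were present in JH hens and at 0 in every JF hen. A fragment in every JH hen and in no JF hen was found for 2 of 466 members, or 0.429%, against 0.114% of autosomal lncRNAs. The reverse was found for 1 member, or 0.215%, against 0.102%. NONGGAT011606.2 (Z:965777-968760, 2741 nt) had 14 to 76 fragments in the 8 JH hens, with a median of 43.5, and 0 in all 6 JF hens. It was at least 15.9-fold higher in JH, taking the limit of 3 fragments per library in JF (adjusted p = 6.75e-05 by edgeR, exact permutation p = 0.000333, the smallest that these hens allow). A lncRNA at 0 in every JF hen passed the filter through the JH hens alone, and without the filter the adjusted p of NONGGAT011606.2 was 9.41e-05 by edgeR. NONGGAT011605.2 covers the same interval. It had 11 to 29 fragments in the JH hens and 1 to 5 in the JF hens (log2 fold change 2.69 ± 0.33, adjusted p = 0.000238 by edgeR). The groups did not overlap in either lncRNA. Summed over this locus, which also holds NONGGAT011607.2, the JH hens had 34 to 93 fragments and the JF hens 1 to 5 (log2 fold change 4.48 ± 0.28, adjusted p = 6.15e-08 by edgeR on summed counts).

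The assembled intergenic locus MSTRG.30199 (Z:47228177-47237654, plus strand) showed the largest contrast in fragments. Its 6 overlapping transcripts together held 270 to 970 fragments in the JH hens and 0 to 3 in the JF hens (log2 fold change 8.68 ± 0.52, adjusted p = 5.70e-08 by edgeR on summed counts), with no overlap. The JH hens alone could meet the filter on summed FPKM, here as at the NONGGAT011606.2 locus, and summed counts were not fitted without it. MSTRG.30199.8 (7117 nt, 3 exons) had 133 to 343 fragments in 7 JH hens and 0 in JH130 and in all JF hens. On mean FPKM it was at least 70.7-fold higher in JH (adjusted p = 0.00333 by edgeR, and 0.00527 without the filter). MSTRG.30199.4 (7245 nt, 2 exons) had 1444 fragments over the JH hens and 2 over the JF hens. Scaled by library total this is a ratio of 619, with an exact 95% counting interval of 171 to 5116 (adjusted p = 0.00242 by edgeR, and 0.00345 without the filter). It ranged within JH from 1 fragment in JH68 to 735 in JH130. Without JH130 the ratio was 344. Without JF64, the single JF hen with fragments, it could only be bounded, at least 71.5-fold on mean FPKM. MSTRG.30199.4 was called in both cases, with the FPKM filter kept as set on all 14 hens. Without JH130 it would have missed that filter.

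MSTRG.29522.1 (Z:16571398-16576453, minus strand, 3517 nt), an intergenic transcript of 2 exons, had 244 fragments over the JH hens, between 3 and 73 each. A single fragment, in JF56, was counted over the JF hens, a ratio of 209 with an exact 95% counting interval of 37.2 to 8296 (adjusted p = 0.000755 by edgeR, and 0.00128 without the filter). Without JF56 it could only be bounded, at least 11.6-fold on mean FPKM, and it was still called. MSTRG.30180.3 (Z:46140085-46144906, 555 nt), a second transcript antisense to EPB41L4A, had 3 to 13 fragments in the JH hens and 0 in the JF hens. It was at least 2.93-fold higher in JH (adjusted p = 0.00109 by edgeR, and 0.00128 without the filter). JH and JF did not overlap in either of them.

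Another 3 were higher in JH but also detected in JF. MSTRG.30171.2 (Z:45810168-45811263, minus strand, 394 nt) ranged from 2.83 to 6.13 FPKM in JH, with a median of 4.15, and from 0 to 1.09 in JF (log2 fold change 2.75 ± 0.40, adjusted p = 0.000745 by edgeR). MSTRG.29943.1 (Z:33509087-33510252, plus strand, 836 nt) ranged from 1.04 to 4.63 FPKM in JH and from 0.299 to 0.690 in JF (2.09 ± 0.41, adjusted p = 0.00648 by edgeR), and 4 of the 14 fits that left out a hen brought its log2 fold change below 2, to 1.77 without JH104 and to between 1.98 and 1.99 without JF25, JH109 or JF21. NONGGAT012098.2 (Z:80738052-80739470, 445 nt) ranged from 1 to 11 fragments in JH and from 0 to 1 in JF (2.63 ± 0.53, adjusted p = 0.00781 by edgeR). JH and JF touched at 1 fragment in NONGGAT012098.2 and stood apart in the other pair.

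The 2 members called lower in JH were NONGGAT012052.2 and MSTRG.29745.1. NONGGAT012052.2 (Z:66897532-66898972, 1006 nt) had 2 to 4 fragments in every JF hen and 1 fragment in all the JH hens together. The ratio of JF to JH was 21.0, with an exact 95% counting interval of 3.31 to 875 (adjusted p = 0.000564 by edgeR). Without JH14 the JH hens were all at 0. The mean FPKM in JF was then within the limit of 3 fragments per library, so no fold is given. NONGGAT012052.2 was still called there, but the FPKM filter was that of all 14 hens, which it met only with JH14. With all hens and no filter its adjusted p was 0.00158 by edgeR. MSTRG.29745.1 (Z:26127767-26130821, plus strand, 948 nt, intergenic) had 2 to 17 fragments in JF and 0 to 4 in JH, which overlap (log2 fold change -2.996 ± 0.660, adjusted p = 0.0140 by edgeR). Without JH49 its log2 fold change was -3.63. Without JF21 it was -2.63 (adjusted p = 0.0439 by edgeR), and MSTRG.29745.1 was still called.

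A further 7 members passed the adjusted p with log2 fold changes between 0.61 and 1.99 in size, 4 higher and 3 lower in JH. The 3 lower ones were expressed in every hen. NONGGAT011698.2 (Z:16330727-16332060) ranged from 9.47 to 13.5 FPKM in JH and from 12.9 to 23.9 in JF (-0.66 ± 0.17, adjusted p = 0.0306 by edgeR). NONGGAT011872.2 (Z:41424853-41430729) had -0.75 ± 0.21 (adjusted p = 0.0428 by edgeR). The abundant NONGGAT011617.2 had -0.61 ± 0.17 (adjusted p = 0.0494 by edgeR). These adjusted p-values did not hold throughout. That of NONGGAT011617.2 rose to 0.0538 with median-ratio size factors, 0.0772 without the filter, 0.113 by limma and 0.160 with library-total scaling, and that of NONGGAT011872.2 to 0.0683 without the filter, 0.0722 by DESeq2, 0.106 by limma and 0.129 with library-total scaling. With a single hen left out they reached 0.171 for NONGGAT011617.2, 0.119 for NONGGAT011872.2 and 0.0768 for NONGGAT011698.2. In all 3 the ranges of JH and JF overlapped. By FPKM, every JH hen lay above every JF hen in 8 of the 292 tested members, or 2.74%, beside 2.18% of all tested lncRNAs. Every JH hen lay below in 2, or 0.685%, beside 1.35%. The 8 include NONGGAT012098.2, where JH and JF touched at 1 fragment and stood apart only in FPKM. Over all members without the filter, which JF hens alone could not meet, it was 8 of 466 above, beside 1.5% of all lncRNAs, and 3 of 466 below, beside 1.05%.

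**Figure D4:**
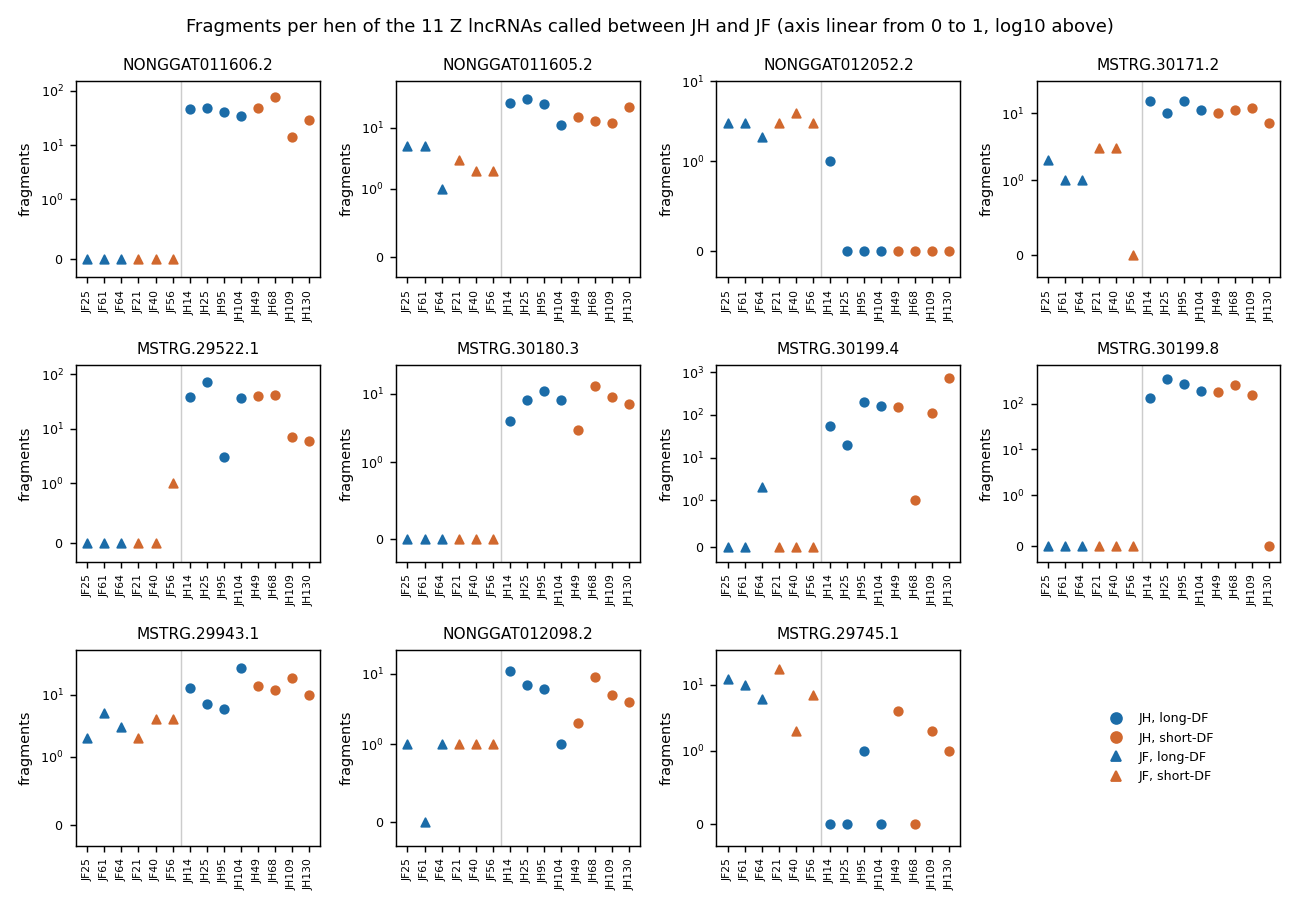
Fragments per hen of the 11 Z lncRNAs called between JH and JF, 1 panel each; JF hens stand left of the vertical line and JH hens right of it, and the axis is linear from 0 to 1 and logarithmic above. NONGGAT011606.2, MSTRG.30180.3 and MSTRG.30199.8 are at 0 in all 6 JF hens, and NONGGAT012052.2 and MSTRG.29745.1 are the 2 that are lower in JH.

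At several loci the hens differed in which overlapping lncRNA held the fragments. NONGGAT011758.2 (Z:24022969-24023966) and NONGGAT011759.2 (Z:24023081-24023984) mirrored each other. NONGGAT011759.2 had 4 to 8 fragments in 5 JF hens and 0 in JF56 and in the 8 JH hens, while NONGGAT011758.2 had 2 to 5 fragments in the 8 JH hens, 5 in JF56 and 0 in the other 5 JF hens. No hen had both. Together they had 2 to 5 fragments in the JH hens and 4 to 8 in the JF hens (log2 fold change -0.34 ± 0.19, adjusted p = 0.627 by edgeR on summed counts). NONGGAT011758.2 alone had an adjusted p of 0.0679 by edgeR and was not called, although it was called higher in JH by DESeq2 (0.0446), by limma on log2(FPKM + 0.1) (0.00388) and by edgeR with the filter at 0.5 FPKM (0.0480). NONGGAT011759.2 was called lower in JH without the FPKM filter.

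Within JH the leading transcript of the MSTRG.30199 locus changed from hen to hen. MSTRG.30199.8 held most of the locus fragments in 4 JH hens, and MSTRG.30199.6, MSTRG.30199.7, MSTRG.30199.2 and MSTRG.30199.4 led in 1 each, JH14, JH25, JH68 and JH130. MSTRG.30199.2, with 346 fragments, was seen only in JH68, and MSTRG.30199.5, with 222, only in JH130. At the EPB41L4A antisense locus, MSTRG.30180.3 led in 6 JH hens and MSTRG.30180.2 in 2. MSTRG.30180.1 led in the 3 JF long-DF hens and MSTRG.30180.2 in the 3 JF short-DF hens. Summed over these 3 transcripts, JH hens had 10 to 23 fragments and JF hens 1 to 12 (log2 fold change 1.29 ± 0.31, adjusted p = 0.0154 by edgeR on summed counts), below the fold threshold.

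At the NANS antisense locus the 13 transcripts together held 208 to 606 fragments in every hen, while single transcripts dropped out. MSTRG.30266.11 was at 0 in JF21, JH14 and JH109 and at 72 to 142 fragments in the other 11 hens. MSTRG.30266.2 and MSTRG.30266.1 were at 0 in JF40 alone, the hen with 42 fragments on MSTRG.30266.4 and 34 on MSTRG.30266.5. MSTRG.30266.1 reached 384 fragments in JF21. The locus as a whole had log2 fold changes of -0.03 ± 0.23 between the DF groups and -0.38 ± 0.22 between the prefixes (adjusted p = 0.995 and 0.349 by edgeR on summed counts). How fragments shared by overlapping transcripts were split among them is not stated, and its part in these patterns was not tested. Over all members, 53 of 466, or 11.4%, had 0 fragments in some hen and 10 or more in another, against 11.1% of autosomal lncRNAs.

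**Figure D5:**
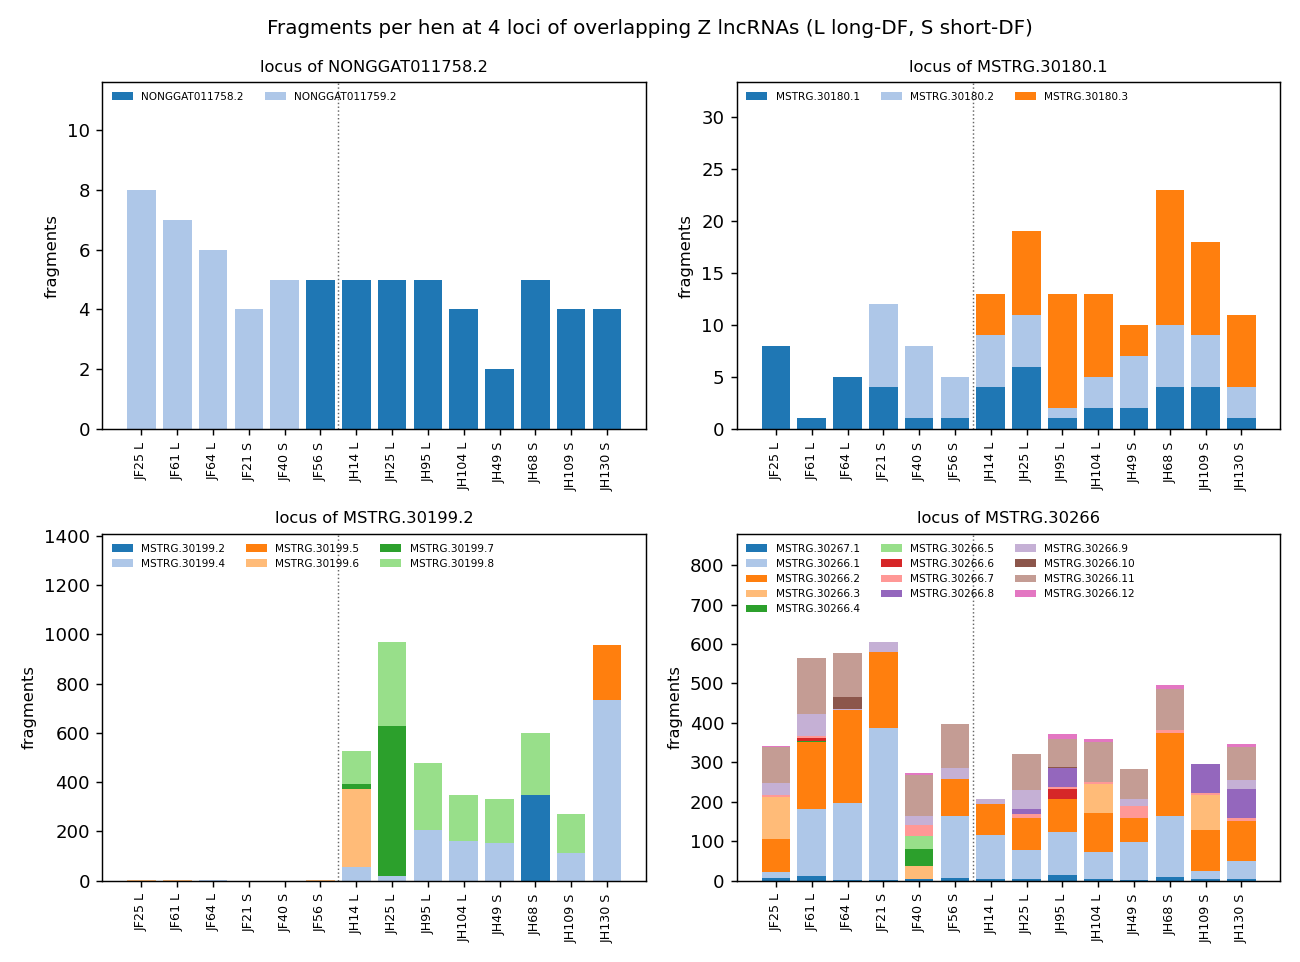
Fragments per hen at 4 loci of overlapping Z lncRNAs, stacked by transcript; JF hens stand left of the dotted line, and L and S mark long-DF and short-DF hens. The NONGGAT011758.2 locus shows 1 transcript or the other in each hen, MSTRG.30199 has 0 to 3 fragments in JF against 270 to 970 in JH, and the MSTRG.30266 total stays between 208 and 606 while its make-up changes.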

How the data were processed

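UVJ libraries of 14 hens (7 long-DF, 7 short-DF; 8 JH, 6 JF) were used. Reads were mapped by the authors to Galgal4 with TopHat, and transcripts were assembled with StringTie and compared in Gffcompare. The authors filtered them on FPKM, length, exons, open reading frame and coding potential. The authors deposited raw fragment counts per lncRNA, whose counting tool is not given in the sources used here, and FPKM, normalized by length and library total. The library total was computed from count, length and FPKM.

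Counts were tested in edgeR 4.0.16 (R 4.3.3; TMM, quasi-likelihood F test) over the 6887 lncRNAs with FPKM of at least 0.1 in at least 7 hens, 6861 within JF, with Benjamini-Hochberg adjustment over all of them. Standard errors are the absolute log2 fold change over the square root of F. Single lncRNAs and loci were also compared by two-sided exact permutation tests on log2(FPKM + 0.1), over 3432 or 3003 splits. Alternatives were DESeq2 1.42.0, limma 3.58.1 on log2(FPKM + 0.1) or log2(FPKM + 1), median-ratio size factors, library-total scaling, no filter or a stricter one, counts summed over loci, the other factor as covariate or not, and each hen left out. With a hen left out, the FPKM filter was still that of all 14 hens. Each library came from a separate hen. Summaries used Python 3.11.15, numpy 2.4.6, pandas 2.3.3, scipy 1.17.1 and matplotlib 3.10.9. The fits were tested on simulated data.

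Overlapping lncRNAs form a locus. Named lncRNAs were those called (the 10 with the smallest p), the 3 with the smallest p per direction for DF and 5 for the prefix, the 6 known and 6 assembled most abundant, and the study's listed Z lncRNAs. Members of named loci were added after their values were seen. Members, lists and rules were chosen with earlier results of these data known. No paired analysis was made, as hen numbers pair no hens. Genome sequence was not used here.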

Additional observations from a re-analysis of the deposited data

Results flagged for a closer look

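Hens that stood far from the other 6 of their DF group were looked for in 80 groups of values, the medians, the Z share of fragments and the FPKM of each named lncRNA. There were 12. A chance rate of about 1 in 20 groups does not hold for them, since most named lncRNAs were picked by their values and some overlap. In some a single fragment among hens at 0 was enough, so the number is not read as an excess. Each DF group mixes JH and JF hens, so differences between the prefixes enter here, and their part was not tested. Of the 12, 6 belonged to the NANS antisense and MSTRG.30199 loci described above. MSTRG.30199.4 was at 16.2 FPKM in JH130 against 0 to 3.53 in the other short-DF hens. MSTRG.30266.11 was at 0 FPKM in JH14 against 21.4 to 33.7 in the other long-DF hens, and MSTRG.30266.1 at 33.1 in JF21 against 0 to 13.5. MSTRG.30266.4 and MSTRG.30266.5 were at 8.05 and 6.52 FPKM in JF40 and at 0 in the other short-DF hens. MSTRG.30266.4 was also at 0.334 FPKM in JF61, with the other long-DF hens at 0.

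In abundant lncRNAs, NONGGAT011698.2 was at 23.9 FPKM in JF61 against 9.47 to 14.1 in the other long-DF hens. NONGGAT011617.2 was at 29.9 FPKM in JF56 against 13.96 to 19.97 in the other short-DF hens. JF21 was highest in MSTRG.29358.1, at 2.66 FPKM against 0 to 1.05, and in MSTRG.29745.1, at 2.57 against 0 to 1.04. A single fragment set NONGGAT011810.2 in JF40 (0.149 FPKM) and NONGGAT016707.1 in JF64 (0.152 FPKM) apart from hens at 0.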

How the results depend on the processing

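No paired analysis was possible because the hens carry no replicate numbers that pair them across groups. The count of Z lncRNAs called between long-DF and short-DF hens was 0 under all 9 alternatives and with any hen left out (0 to 0), and so was the count within JH and the difference between the prefixes under theirs. Within JF it was 0 except under limma on log2(FPKM + 0.1), which called 3. Between JH and JF, 11 were called, and 9 to 14 under 8 of the 9 alternatives and 10 to 13 with a hen left out. Of these 8, the fit on counts summed over loci called 10 of 246 loci, not lncRNAs. The stricter FPKM filter left 179 members, of which 9 were called. The fits that left out a hen kept the FPKM filter as set on all 14 hens, so that hen still counted in it. Limma on log2(FPKM + 1) called 1, MSTRG.30199.8. For the other 10 it kept the direction and an adjusted p of at most 0.0343, but the pseudocount shrank the log2 fold changes to sizes between 0.45 and 1.80.

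Median FPKM moved with the lncRNAs admitted. With the FPKM filter it was 0.505 for known Z, 0.712 for known autosomal, 1.25 for assembled Z and 1.20 for assembled autosomal lncRNAs, and with 1 lncRNA per locus 0.299, 0.401, 1.09 and 1.22. The ratios of Z to autosomes under these settings were 0.709 and 0.745 for known and 1.04 and 0.897 for assembled lncRNAs. Leaving out a hen gave medians of 0.229 to 0.238, 0.333 to 0.342, 0.871 to 0.914 and 0.897 to 0.927, and ratios of 0.682 to 0.700 and 0.955 to 0.993. Alternatives chosen after seeing the data gave a ratio for known lncRNAs of 0.862 against chromosomes 1 to 5, 0.579 in NONCODEv4 and 0.763 in the larger published set. It was 0.581 at the upper quartile and 0.508 at the 90th percentile. For assembled lncRNAs it was 0.790 at the 90th percentile. No ratio was computed for the smaller published set, whose autosomal median reached 0 in a hen. The log2 fold change of MSTRG.29522.1 between the DF groups ranged from -0.0091 to 1.25 with a hen left out, and that of NONGGAT011758.2 from -0.36 to 0.10, its values above 0 being 0.0860, 0.0981, 0.0697 and 0.0576. Counts were low: 216 of 466 members had at most 3 fragments in every hen.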

Other observations

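NONGGAT012113.2 (Z:81396690-81403420) had 170 fragments in the short-DF hen JH109 and 5 to 26 in the other 13 hens, and was picked after its values were seen. MSTRG.30154.1 (Z:44741213-44756534, minus strand, 4520 nt), also picked after its values were seen, had 86 to 128 fragments in the JF hens and 112 to 183 in the JH hens, with FPKM ranges that did not overlap (log2 fold change 0.72 ± 0.13, adjusted p = 0.00472 by edgeR).

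Some lncRNAs were called between JH and JF under some settings and not under others. Without the FPKM filter, NONGGAT016605.1 (1 or 2 fragments in every JF hen and 0 in all JH hens) and MSTRG.29716.3, antisense to MRPS27 (15 to 51 fragments in 6 JH hens and 0 elsewhere), passed, with adjusted p of 0.0252 and 0.0268 by edgeR. With counts summed over loci, the locus of MSTRG.30008.4 and MSTRG.30008.5 passed as lower in JH (log2 fold change -2.22, adjusted p = 0.0489 by edgeR). Alone, MSTRG.30008.4 had an adjusted p of 0.0805 by edgeR and 0.0226 by DESeq2. MSTRG.29493.1 (Z:14586381-14587570), at a log2 fold change of 1.99 ± 0.51 (adjusted p = 0.0295 by edgeR), passed the fold threshold under DESeq2, limma on log2(FPKM + 0.1), the stricter FPKM filter and library-total scaling.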
